A study of Mus musculus with 42 samples.

Results

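Cidea, Cideb, Cidec, Pnpla2, Pnpla3, Lipe, Mgll, Dgat1 and Dgat2 are 9 genes whose proteins fill, enlarge or empty lipid droplets. They were taken as the non-control probes that carry one of these symbols on the array, which gave 16 of 41174 probes. The genes were chosen by the level of Cidec, which was higher in Akt1+/- liver. The genotype differences of all 9 genes in liver are therefore given as a description without a test, while age, tissue, and genotype in muscle and fat were tested.

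RNA was measured on 42 one-colour arrays of liver, quadriceps muscle and visceral fat of female C57BL/6 mice, either wild type or Akt1+/-, that is, with 1 of the 2 copies of Akt1 disrupted in every cell of the body. Akt1 encodes a kinase of the insulin and insulin-like growth factor pathway. Every tissue was represented by 14 arrays. At 8 weeks there were 3 wild-type and 3 Akt1+/- arrays, and at an older age, 35 weeks by the labels and slightly later by the methods, there were 4 of each. No treatment is described, the heterozygous line had been backcrossed to C57BL/6, and the labels do not say whether each array came from a separate mouse, so that p values measure the spread between these arrays.

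A lipid droplet is a core of triglyceride in a coat of proteins. The CIDE proteins gather where droplets touch and pass lipid from the smaller to the larger, with Cidec known from white fat, Cidea from brown fat and Cideb from hepatocytes, in which it also helps to load very low density lipoprotein. Pnpla2 (adipose triglyceride lipase), Lipe (hormone-sensitive lipase) and Mgll (monoglyceride lipase) remove the fatty acids in turn, Pnpla3 is a droplet protein related to Pnpla2, and Dgat1 and Dgat2 attach the last fatty acid of a triglyceride.

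RefSeq promoter windows on GRCm38.p6 matched 6 of the 9 genes (9 windows), with no entry for Cidea, Dgat1 and Dgat2. The windows of Cidec are shown because the choice of the genes turned on it. Its single probe is placed by the array at chr6:113390476-113390535 on the minus strand of mm8, a different build, and which of the 2 starts its transcripts used was not measured. The starts are 996 bases apart on the minus strand, and the 250 bases before each are given 5′ to 3′.
Cidec, upstream start, chr6:113435761-113436010: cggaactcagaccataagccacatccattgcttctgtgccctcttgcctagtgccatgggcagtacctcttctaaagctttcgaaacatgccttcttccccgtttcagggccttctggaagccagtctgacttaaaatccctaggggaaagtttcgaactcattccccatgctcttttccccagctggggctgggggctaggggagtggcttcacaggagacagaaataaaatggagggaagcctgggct
Cidec, downstream start, chr6:113434765-113435014: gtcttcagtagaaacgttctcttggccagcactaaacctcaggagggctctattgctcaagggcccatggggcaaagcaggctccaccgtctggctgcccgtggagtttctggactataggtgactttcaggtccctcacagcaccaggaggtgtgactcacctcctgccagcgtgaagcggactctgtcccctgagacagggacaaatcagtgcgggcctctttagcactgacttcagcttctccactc
These windows were searched on both strands for the element AGGTCA of nuclear receptors, for the direct repeat of it with 1 base between the copies, to which PPAR receptors bind, for the forkhead element TGTTTAC of FoxO factors, for the E-box CACGTG and for the TATA box TATAAA. Matches would stand in capitals, and neither Cidec window holds one. Among all 32851 promoter windows of the same length, 0.0335% hold the direct repeat, 14% the single element, which every direct repeat also contains, 3.17% the forkhead element, 6.02% the E-box and 12.4% the TATA box. Lipe had an E-box in 1 window and a forkhead element in the other, Mgll had both in the same window, and Cideb had a TATA box at bases -172 to -167. A match or its lack describes these letters only.

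Levels are log2 intensities minus the 75th percentile of the same array, and are compared between arrays for the same probe, never between genes. Between 56.5 and 68.6% of all probes were well above background per array, and none of the member probes was saturated. Replicate arrays of a group correlated with r between 0.951 and 0.974 over the probes with a value on all arrays, so that none was a copy of another. For these r values a further log2 was taken of the log2 intensities, so they are not correlations of the levels themselves. Akt1 itself ranged from 3.28 to 3.64 in wild-type and from 2.56 to 3.05 in Akt1+/- livers, and the genotypes did not overlap at either age in any of the 3 tissues. The tissues carried their own markers. The summed level of hepatocyte markers ran from 10.82 to 11.31 in liver, that of muscle markers from 12.15 to 12.62 in muscle, and that of adipocyte markers from 10.46 to 11.11 in fat. Some young Akt1+/- arrays also held markers of another tissue. In liver, replicates 1 and 3 had summed muscle markers at 1.85 and 0.41, while the other 12 livers had at most -0.86. Only part of the list was raised. In young Akt1+/- livers Myh7, Mb and Myh4 reached 0.59, 0.73 and -2.18, each well above background on 2 of 3 arrays. Acta1 was so on 1, and Ckm, Myh1 and Tnnt3 on 0. Tnni2 was at -2.94 to -2.88, below the -2.51 to -2.45 of young wild type. In muscle, replicate 3 of the young Akt1+/- group had hepatocyte markers at 5.47, against at most 2.68 on the other 13. In older fat, Myh4 was at -1.71 to 1.32 in wild type and at -3.78 to -2.62 in Akt1+/-, and Tnni2 at -0.83 to 2.06 and at -1.72 to -0.95. The summed muscle markers of these groups overlapped, at 4.78 to 5.84 and 4.43 to 6.44. Acta1 carried nearly all of this sum, at 4.67 to 5.81 in wild type and at 4.39 to 6.43 in Akt1+/-. For genotype in fat over both ages, 8 of 8 muscle markers had a negative difference (median -0.60), and 0 passed. For age in fat, 3 of 8 muscle markers passed, all higher. The part of muscle RNA in the fat values was not tested. No slide held both genotypes of a tissue at 35 weeks, nor of liver at 8 weeks, where the Akt1+/- livers lay on 2 slides of different scan days, and no scan day held both ages of a tissue. Slide and genotype there, and scan day and age everywhere, cannot be told apart. In fat the older genotypes were also scanned on different days, as were 2 of the 3 young wild-type arrays and the young Akt1+/- arrays, so that scan day and genotype cannot be told apart in older fat.

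**Figure D1:**
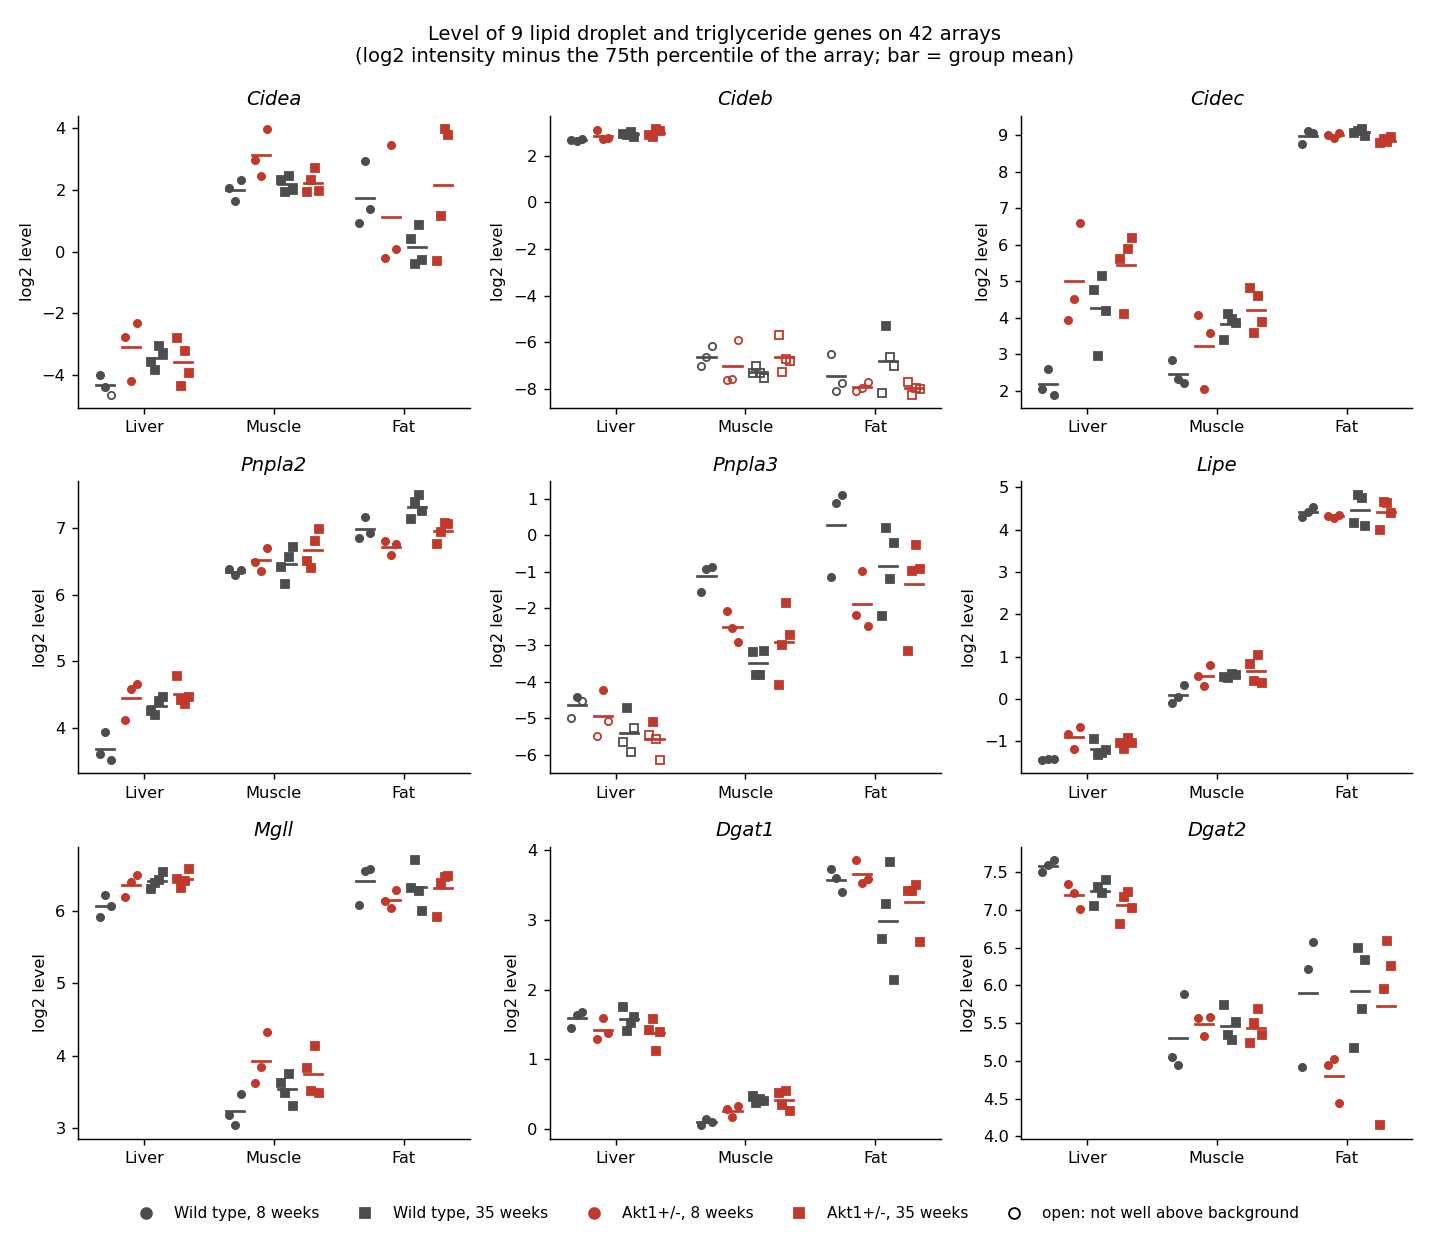
Level of each of the 9 genes on the 42 arrays (y axis, log2 intensity minus the 75th percentile of the array, with its own range per gene) in liver, muscle and fat (x axis). Each point is an array, bars are group means, and open points were not well above background. Cideb is high in liver alone, Cidec is highest in fat and spreads most in liver, and Cidea spreads most in fat.

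Most of the 9 genes separated the tissues. In the fit over all 42 arrays, 8 of 9 passed an adjusted p of 0.05 for fat against liver, where 86.2% of all 19860 genes did. For fat against muscle it was 8 of 9 beside 87.6%, of which Cideb was at background in both tissues and is not read, and for liver against muscle 9 of 9 beside 85.8%. Cideb entered these fits through liver alone, where it is high, and Pnpla3 through muscle and fat. The counts were near those of all genes and the sizes carry the description. In whole tissue, fewer cells of a type and less RNA per cell cannot be told apart. On the arrays scanned on 1 day, Lipe was higher in fat than in liver by 5.06 to 5.97 and Cidec by 3.41 to 6.87, and fat minus muscle in older wild type was 5.25 for Cidec and -2.02 for Cidea.

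Among the CIDE genes, Cideb, the hepatocyte form, was well above background on 14 of 14 liver arrays, 0 of 14 muscle arrays and 1 of 14 fat arrays. Its level in liver ran from 2.62 to 3.15, a narrow range over all genotypes and ages. Against the detection floor it was at least 249-fold higher in liver than in muscle and at least 363-fold higher than in fat, taking the smallest bound over the groups that had no array above background. No test is given for it, since it passed the filter on dim probes only in liver, and its order between muscle and fat has no meaning, since both were at background.

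Cidec, the white fat form, had its highest level in fat, where the 14 arrays lay between 8.76 and 9.16. The median was 4.34 in liver and 3.71 in muscle, and both tissues varied far more between arrays than fat did. Fat exceeded muscle by 5.54 ± 0.25 (log2 difference ± SE, 46.4-fold, limma adjusted p 1.77e-20) and liver by 4.75 ± 0.25 (26.9-fold). Liver exceeded muscle by 0.79 ± 0.25 (adjusted p 0.0039), and the arrays of these tissues overlapped. With the 8 week arrays alone this last difference was 0.75 with an adjusted p of 0.0986.

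Cidea was lowest in liver, between -4.63 and -2.31. In muscle its 14 arrays lay between 1.66 and 3.97 and in fat between -0.38 and 3.96. Muscle exceeded liver by 6.00 ± 0.37 (64.0-fold, limma adjusted p 1.59e-16). Muscle also exceeded fat, by 1.10 ± 0.37 (adjusted p 0.00715), a difference that did not pass with the 8 week arrays alone (adjusted p 0.0825).

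The lipases followed different orders. Lipe, which acts on diglyceride, was 46.6-fold higher in fat than in liver (5.54 ± 0.09) and 15.4-fold higher in fat than in muscle (3.94 ± 0.09), with no overlap between tissues. Pnpla2, which takes the first fatty acid from triglyceride, was 6.75-fold higher in fat than in liver (2.76 ± 0.07) but 1.41-fold higher in fat than in muscle (0.49 ± 0.07, limma adjusted p 2.38e-07). Mgll, which frees the last fatty acid, had a median of 6.39 in liver and 6.30 in fat (fat minus liver -0.02 ± 0.09, adjusted p 0.83) and was 6.54-fold higher in liver than in muscle. The order of liver and fat depended on the normalization, since fat minus liver was 0.94 (adjusted p 8.76e-13) with normexp correction and quantile normalization and -0.20 (adjusted p 0.0389) with median scaling.

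Pnpla3 was well above background on 4 of 14 liver arrays and on all arrays of muscle and fat. Fat exceeded muscle by 1.57 ± 0.29 (2.96-fold, limma adjusted p 9.05e-06) with overlapping arrays. Of the synthesis enzymes, Dgat1 stood highest in fat (3.07 ± 0.11 above muscle, 1.88 ± 0.11 above liver). Dgat2 stood highest in liver (1.68 ± 0.19 above fat, 1.85 ± 0.19 above muscle) and did not separate fat from muscle (0.17 ± 0.19, adjusted p 0.396). Normexp correction with quantile normalization separated fat from muscle for Dgat2 as well (0.72, adjusted p 0.000546).

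In liver, the values that chose these genes were those of Cidec by genotype. In wild-type livers at 8 weeks Cidec was at 2.04, 2.60 and 1.90, and in Akt1+/- livers at 3.94, 4.50 and 6.60. At 35 weeks the wild-type values were 4.75, 2.96, 5.15 and 4.18 and the Akt1+/- values 5.60, 4.10, 5.89 and 6.17. The genotypes were apart at 8 weeks and overlapped at 35 weeks, where 3 of the 4 wild-type livers lay within the range of the young Akt1+/- livers. The difference was 2.83 ± 0.71 at 8 weeks (7.12-fold), 1.18 ± 0.62 at 35 weeks (2.27-fold) and 2.01 ± 0.47 over both ages, with an SD between replicate arrays of 0.98. Without replicate 1 or replicate 3 of the young Akt1+/- livers, which carried muscle markers, the difference over both ages was 2.28 and 1.61, and the part of muscle RNA in it was not tested beyond that.

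Lipase genes of the liver lay higher in Akt1+/- mice at 8 weeks, again as a description. Pnpla2 was at 3.60, 3.93 and 3.52 in wild type and at 4.11, 4.58 and 4.66 in Akt1+/- livers. Lipe was at -1.44, -1.43 and -1.42 in wild type and at -0.84, -1.17 and -0.65 in Akt1+/- livers. Neither gene overlapped at 8 weeks, and both did at 35 weeks. Summed markers of immune cells ran the same way, though not each marker did. Lyz2, the brightest macrophage marker in liver, was at 5.09 to 5.60 in wild type and at 5.88 to 6.23 in Akt1+/- at 8 weeks. Clec4f overlapped, at 4.72 to 4.84 and 4.74 to 4.88. The summed level of 7 macrophage markers was 6.21 to 6.52 in wild-type and 6.73 to 6.95 in Akt1+/- livers at 8 weeks, and that of 6 lymphocyte markers was -0.07 to 0.27 and 0.75 to 0.95, while at 35 weeks both overlapped. Their part in the values of these genes was not tested. The differences at 8 weeks were 0.77 ± 0.17 for Pnpla2 and 0.54 ± 0.14 for Lipe, and at 35 weeks 0.18 ± 0.14 and 0.14 ± 0.12. Mgll differed by 0.29 ± 0.12 at 8 weeks and by 0.02 ± 0.10 at 35 weeks, and of its 3 probes the dimmest differed by -0.78 over both ages, opposite in sign to the other 2.

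Dgat2 was the member that lay lower in young Akt1+/- livers without overlap, at 7.34, 7.22 and 7.01 against 7.51, 7.60 and 7.66. It differed by -0.39 ± 0.13 at 8 weeks and by -0.18 ± 0.12 at 35 weeks, with all 3 probes below 0 over both ages. Dgat1 differed by -0.16 ± 0.14 and -0.19 ± 0.12, Cideb by 0.18 ± 0.12 and 0.05 ± 0.11, and Cidea, near background in liver, by 1.24 ± 0.46 and -0.13 ± 0.40. At 8 weeks 4 of 8 members did not overlap between genotypes, beside 25.2% of 17560 genes. At 35 weeks 0 of 8 were apart, beside 12.6%. Since these contrasts chose the genes, nothing is read from the counts.

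Of the 10 adipocyte markers, between 2 and 4 were well above background in a liver. Fabp4 and Car3 were so in all 14 livers, Cfd in 3, Adipoq, Plin1, Retn and Tshr in 1 each, and Lep, Adig and Adrb3 in 0. The summed level of the list lay between 4.84 and 5.98 in wild-type and between 3.37 and 5.56 in Akt1+/- livers. Car3 alone ran from 4.53 to 5.79 and from 2.09 to 5.33. Retn, near background, was at -6.01 to -4.54 in older Akt1+/- and at -7.65 to -7.08 in older wild-type livers. The part of adipocytes in the liver values was not tested.

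**Figure D2:**
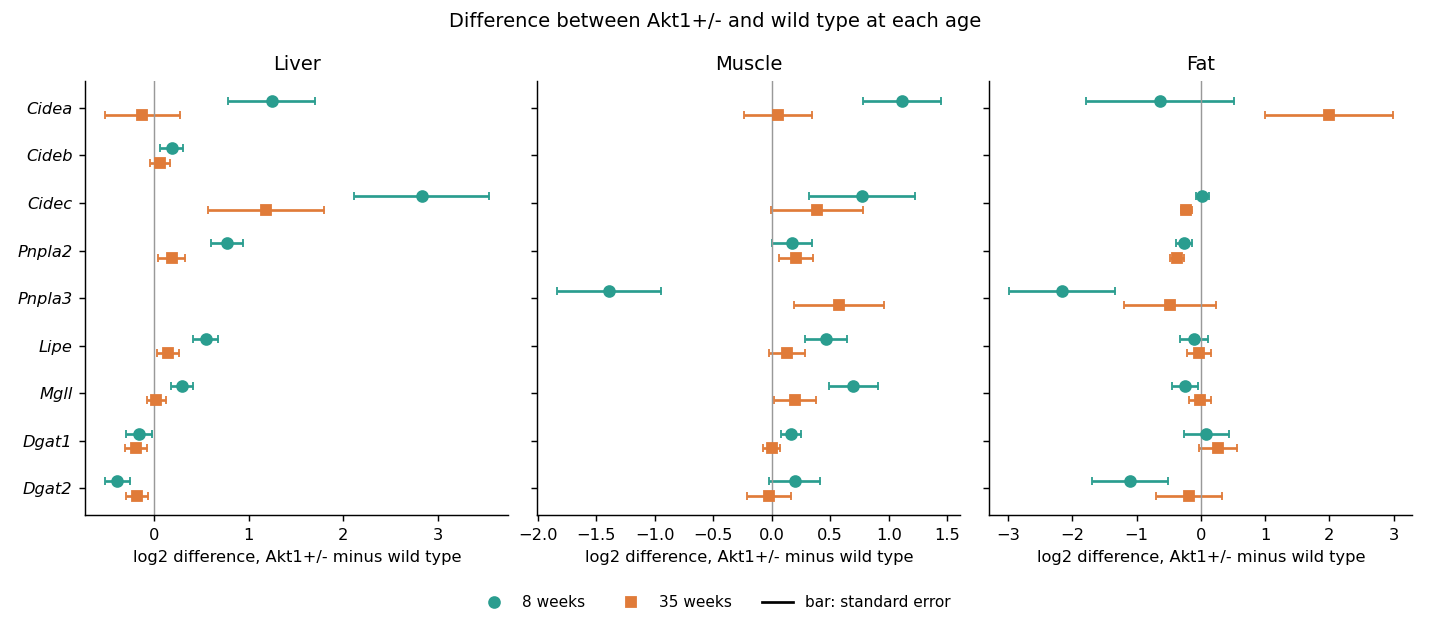
Difference between Akt1+/- and wild type (x axis, log2 difference, with its own range per tissue) for each member (y axis) at 8 weeks (circles) and 35 weeks (squares), with standard errors from limma. Liver values are those that chose the genes. The estimates at 8 weeks lie farther from 0 than those at 35 weeks for Cidec, Pnpla2, Lipe and Dgat2 in liver.

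In muscle and fat the genotype was tested, and 0 of the 8 measured members passed in either tissue. In muscle 0.0% of 17138 genes passed, and 3 members had an unadjusted p below 0.05 in limma, beside 18.5% of all genes. They were Mgll (0.45 ± 0.14, adjusted p 0.156), Cidea (0.58 ± 0.22, adjusted p 0.211) and Lipe (0.30 ± 0.12, adjusted p 0.224). The median over the 8 members was 0.24, beside -0.0035 for all genes. Without replicate 3 of the young Akt1+/- muscles, which carried hepatocyte markers, the differences were 0.35 for Mgll, 0.37 for Cidea and 0.23 for Lipe.

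The muscle values of several members were apart at 8 weeks, as were summed markers of other cells, though not each marker was. At that age the summed level of adipocyte markers was 7.65 to 8.24 in wild-type and 8.46 to 8.75 in Akt1+/- muscle. That of macrophage markers was 4.65 to 5.66 and 5.69 to 6.21. Lyz2, the brightest of these, was at 4.52 to 5.52 and 5.55 to 6.09, and Adgre1 and Cd163 were apart too. Cd68 overlapped, at -2.70 to -1.71 and -2.01 to -0.73, as did Csf1r, at -0.41 to 0.65 and 0.39 to 0.80. Adipoq and Plin1 reached at most 3.12 and 1.94 in muscle, so other genes of the list carried most of the adipocyte sum. The part of these markers in the values was not tested. Mgll was at 3.18, 3.04 and 3.47 in wild type and at 3.62, 3.85 and 4.32 in Akt1+/- muscle, while at 35 weeks the genotypes overlapped between 3.31 and 4.14. Cidea was at 2.07, 1.66 and 2.32 against 2.96, 2.45 and 3.97 at 8 weeks. Pnpla3 was at -1.55, -0.92 and -0.87 in wild type and at -2.06, -2.52 and -2.93 in Akt1+/- muscle at 8 weeks, whereas at 35 weeks wild-type values lay between -3.82 and -3.16 and Akt1+/- values between -4.09 and -1.87. With Dgat1 these were 4 of 8 members without overlap at 8 weeks, beside 22.4% of all genes, and 0 of 8 at 35 weeks, beside 5.54%. The interaction of genotype and age was not passed by any member in muscle (0.0% of genes). Pnpla3 had the largest estimate (1.97 ± 0.59, unadjusted p 0.00581, adjusted p 0.422 in limma), and 2 members had an unadjusted p below 0.05, beside 8.4% of genes. Within the slide of 8 weeks that held 3 wild-type and 1 Akt1+/- muscle, Cidea differed by 0.94, Mgll by 0.39 and Pnpla3 by -0.95.

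In fat 0.822% of 18364 genes passed for genotype, and 2 members had an unadjusted p below 0.05, beside 19.2% of genes. Pnpla2 came nearest among the members (-0.31 ± 0.08, limma adjusted p 0.0995). It was at 6.86, 7.17 and 6.92 in wild type and at 6.80, 6.60 and 6.77 in Akt1+/- fat at 8 weeks, and at 7.13, 7.40, 7.51 and 7.26 against 6.76, 6.94, 7.07 and 7.06 at 35 weeks. Every Akt1+/- value lay below every wild-type value of its age. The summed level of adipocyte markers also was lower in older Akt1+/- fat, at 10.46 to 10.74 against 10.87 to 11.11, while at 8 weeks the genotypes overlapped (10.64 to 10.80 and 10.60 to 11.03). The summed level of hepatocyte markers was lower in Akt1+/- fat without overlap at both ages, at 6.37 to 6.43 against 6.55 to 6.89 and at 6.34 to 6.59 against 6.77 to 7.05. Cyp2e1 carried nearly all of this sum, at 6.36 to 6.41 against 6.52 to 6.83 and at 6.28 to 6.55 against 6.75 to 7.03. Of the 4 hepatocyte markers tested in fat, 3 had a negative genotype difference and 1 a positive one, and 1 passed as lower. Mean Cyp2e1 was 7.39 to 7.65 in the liver groups, and Ttr was well above background on 0 arrays of each fat group. Mean Alb at 35 weeks was 0.65 in Akt1+/- and 0.42 in wild-type fat. The part of other cells or of adipocyte content in Pnpla2 was not tested. The other Pnpla2 probe differed by 0.12, so that the probes disagreed in sign. Pnpla2 was the 1 member of 8 without overlap at 8 weeks, beside 27.1% of genes, and Pnpla2 and Cidec were the 2 of 8 at 35 weeks, beside 9.88%.

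Pnpla3 and Dgat2 varied widely in fat. At 8 weeks the summed level of mesothelium markers was 4.42 to 4.97 in wild-type and 5.08 to 5.63 in Akt1+/- fat, and its part was not tested. Pnpla3 was at -1.13, 0.88 and 1.11 in wild type and at -2.17, -0.98 and -2.48 in Akt1+/- fat at 8 weeks, and differed by -1.32 ± 0.55 over both ages (unadjusted p 0.0323, adjusted p 0.22 in limma). Dgat2 was at 4.92, 6.22 and 6.58 against 4.94, 5.03 and 4.44 at 8 weeks, and differed by -0.64 ± 0.39 (adjusted p 0.384). The wild-type array that shared a slide with the 3 young Akt1+/- arrays was the one with Pnpla3 at 1.11 and Dgat2 at 6.58, and within that slide Pnpla3 differed by -2.99 and Dgat2 by -1.77. For the interaction 0 of 8 members passed in limma, with 0 at an unadjusted p below 0.05, where 1.65% and 20.1% of genes did.

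Cidec in fat was at 8.76, 9.104 and 9.05 against 8.99, 8.93 and 9.06 at 8 weeks, and at 9.05, 9.12, 9.16 and 8.97 against 8.78, 8.88, 8.80 and 8.94 at 35 weeks. The older Akt1+/- values lay below the wild-type values by 0.23 on average, in the same groups in which the adipocyte markers were lower without overlap. Over both ages the difference was -0.10 ± 0.07 (limma adjusted p 0.424), and whether it differs from that in liver was not tested.

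Cidea was the most variable member in fat. It was at 0.92, 2.95 and 1.39 in wild type and at -0.19, 3.45 and 0.08 in Akt1+/- fat at 8 weeks, and at 0.42, -0.38, 0.87 and -0.27 against -0.29, 1.15, 3.96 and 3.79 at 35 weeks. The genotypes overlapped at both ages, and the spread within a group exceeded the difference over both ages (0.68 ± 0.76, limma adjusted p 0.652). Ucp1, the uncoupling protein that defines brown and beige fat cells, was, in the same order of arrays, at -4.15, -2.56 and -4.22 in wild type and at -5.08, -1.73 and -5.16 in Akt1+/- fat at 8 weeks, and at -3.77, -5.40, -2.23 and -6.31 against -5.79, -1.40, 1.56 and 0.64 at 35 weeks. The 2 arrays with the most Ucp1 had the highest Cidea, but the older Akt1+/- array with Ucp1 at -1.40 had Cidea at 1.15, below the 3.45 and 2.95 of arrays with less Ucp1. The summed level of the 7 brown fat markers ran from 2.18 to 3.62 in wild-type and from 2.08 to 3.97 in Akt1+/- fat. Cox8b had the highest mean of the list in each fat group (1.44 to 2.37). Its mean was 7.53 to 7.75 in the muscle groups, where the sum ran from 8.95 to 9.74. The part of muscle RNA in the sum of fat was not tested. The part of brown fat cells in the Cidea values was not tested.

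**Figure D3:**
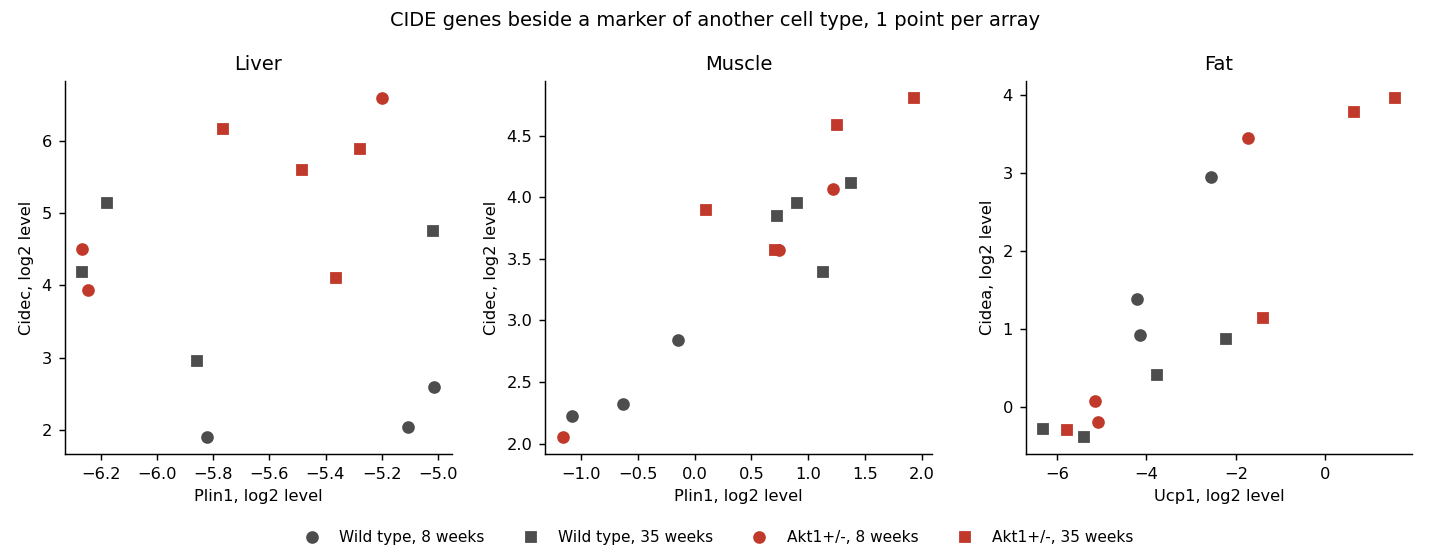
Cidec beside Plin1, an adipocyte marker, in liver (left) and muscle (middle), and Cidea beside Ucp1, a brown fat marker, in fat (right). Each point is an array, and both axes are log2 levels with their own range per panel. Plin1 lay between -6.27 and -5.01 in liver, the lowest Cidec and Plin1 in muscle, 2.05 and -1.17, were on the same array, and in fat the 2 highest Cidea values, 3.96 and 3.79, lay on the arrays with the most Ucp1, 1.56 and 0.64, though the order was not the same on the other arrays.

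Age was tested in each tissue as 35 minus 8 weeks over both genotypes. In liver 2 of 8 members passed, both higher, where 35.0% of genes passed and 20.0% were higher. The median of the members was 0.19, beside 0.02 for all genes. Pnpla2 rose by 0.35 ± 0.11 (1.27-fold, limma adjusted p 0.0284) and Mgll by 0.21 ± 0.08 (1.16-fold, adjusted p 0.0496). The other Pnpla2 probe differed by 0.02, and neither call held with the mean of all probes, with median scaling, with slides as random blocks or with the replicate block.

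Cidec and Dgat2 just missed the threshold in liver. Cidec differed by 1.25 ± 0.47 (2.38-fold, limma adjusted p 0.0558) and Dgat2 by -0.24 ± 0.09 (adjusted p 0.0557). Without the young Akt1+/- array with Cidec at 6.60 (replicate 3, with muscle markers) 4 members passed, among them Cidec with 1.65 (adjusted p 0.0105) and Dgat2 with -0.28 (adjusted p 0.0346). Without replicate 1 of the same group, 1 member passed and the Cidec difference was 0.98 (adjusted p 0.142). In wild-type livers the ages did not overlap for 7 of 8 members, beside 37.5% of genes, and in Akt1+/- livers they were apart for 0 of 8, beside 25.4% of genes. Both counts use the 8 week liver values that chose the genes, so nothing is read from them. Dgat1 was the member that overlapped in wild type. The summed levels of immune cell markers ran likewise, though not each marker did. Of the 7 macrophage markers, 5 had a positive and 2 a negative age difference in liver, with 2 passing as higher and 1 as lower. Mean Clec4f, of that list, was 4.77 at 8 weeks and 4.58 at 35 weeks in wild-type liver. In wild-type liver macrophage markers were at 6.21 to 6.52 at 8 weeks and at 6.82 to 7.16 at 35 weeks, and lymphocyte markers at -0.07 to 0.27 and 0.77 to 1.31, while in Akt1+/- liver the ages overlapped. For age, 5 of 6 lymphocyte markers passed in liver, all higher, and their part in the members' values was not tested. Cidec differed with age by 2.08 in wild type and by 0.43 in Akt1+/- liver, and Pnpla2 by 0.64 and 0.05. The interaction of genotype and age is not tested here for liver, because it is built from the genotype differences that chose the genes.

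In muscle 3 of 8 members passed for age, where 31.3% of genes passed. Pnpla3 fell by 1.40 on the log2 scale (SE 0.30, limma adjusted p 0.00405), from between -2.93 and -0.87 at 8 weeks to between -4.09 and -1.87 at 35 weeks. The age difference was -2.39 in wild type, without overlap, and -0.42 in Akt1+/- muscle, with overlap. Dgat1 rose by 0.24 ± 0.06 (1.18-fold, adjusted p 0.00772), from 0.05 to 0.33 on the young arrays to 0.26 to 0.54 on the older ones. Its other probe differed by 0.05, and the call was lost with the mean of both (adjusted p 0.072) and in 1 fit over all 42 arrays (adjusted p 0.256).

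Cidec rose in muscle by 1.17 ± 0.30 (2.26-fold, limma adjusted p 0.0113), and the call held without any single array (adjusted p from 0.00471 to 0.0286). In wild type it was at 2.84, 2.32 and 2.22 at 8 weeks and at 3.39, 4.11, 3.95 and 3.85 at 35 weeks, and in Akt1+/- muscle at 4.07, 2.05 and 3.57, then at 4.81, 3.57, 4.59 and 3.89. The wild-type ages were apart and the Akt1+/- ages overlapped. The ages were apart for 4 of 8 members in wild-type muscle, beside 35.5% of genes, and for 0 of 8 in Akt1+/- muscle, beside 24.1%. Markers of adipocytes moved with it. All 8 of the 10 adipocyte markers that were tested had a positive age difference in muscle (median 0.62, beside 0.0071 for all genes), of which Plin1 (1.19, adjusted p 0.028) and Lep (1.71, adjusted p 0.0024) passed. The summed level, carried mostly by genes other than Adipoq and Plin1, ran from 7.65 to 8.75 at 8 weeks and from 8.52 to 8.95 at 35 weeks. Plin1 was at -0.15, -0.63 and -1.08 on the young wild-type arrays and between 0.73 and 1.37 on the older ones, and the array with the lowest Cidec, at 2.05, also had the lowest Plin1, at -1.17. The part of adipocytes within the muscle samples in the Cidec value was not tested.

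In fat 1 of 8 members passed for age, where 19.3% of genes passed. Pnpla2 rose by 0.29 ± 0.08 (1.22-fold, limma adjusted p 0.032). The other Pnpla2 probe differed by -0.03, and the call was lost without any 1 of 8 of the 14 arrays (adjusted p from 0.019 to 0.0787 over all 14). It was also lost with the replicate block (adjusted p 0.0547), the mean of probes, median scaling and no filter. Dgat1 differed by -0.50 ± 0.23 (adjusted p 0.141), and was lower on the older than on the young Akt1+/- arrays without overlap, as the 1 member of 8, beside 22.4% of genes. In wild type the ages were apart for 1 of 8 as well, Cidea, beside 28.8%. Cidec differed by -0.02 ± 0.07 (adjusted p 0.863), Lipe by 0.07 ± 0.14 and Mgll by 0.04 ± 0.13.

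**Figure D4:**
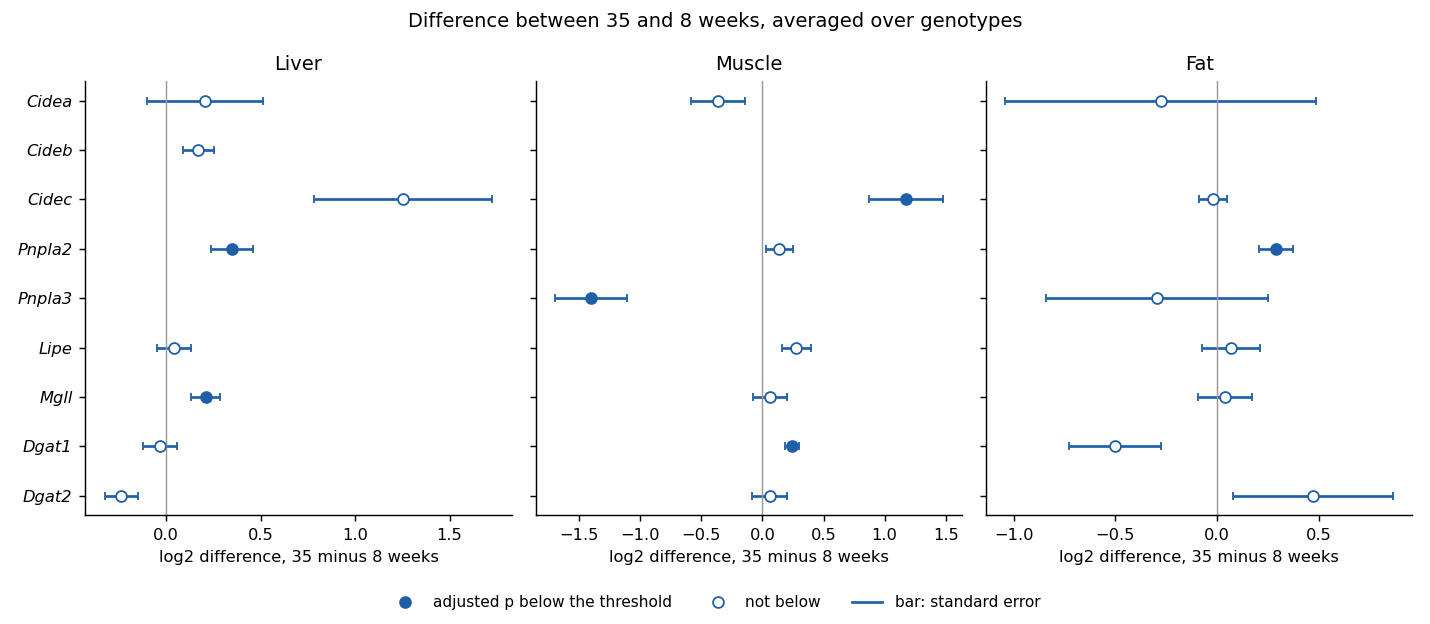
Difference between 35 and 8 weeks over both genotypes (x axis, log2 difference, with its own range per tissue) for each member (y axis), with standard errors from limma; filled points passed an adjusted p of 0.05. Pnpla2 and Mgll passed in liver, Cidec, Dgat1 and Pnpla3 in muscle, and Pnpla2 in fat.

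The age effects were also compared between tissues. For fat against muscle 1 of 9 members passed, where 16.4% of genes did. It was Dgat1, whose age difference was lower in fat than in muscle by 0.74 (SE 0.21, limma adjusted p 0.0162), and it stayed below the threshold without any single array. For fat against liver 0 of 9 passed in limma, with 2 at an unadjusted p below 0.05, where 16.2% and 29.1% of genes did. Cidec came nearest (-1.27 ± 0.49, adjusted p 0.0744), and passed in 3 of the 42 fits that left out 1 array, those without young Akt1+/- liver replicate 3 (-1.67) or without older liver replicate 2 of either genotype (range over all fits -1.67 to -1.01, adjusted p 0.00917 to 0.17). For liver against muscle 0 of 9 passed in limma, with 0 at an unadjusted p below 0.05, where 18.8% and 32.4% of genes did, and the Cidec age difference was 0.08 ± 0.49 larger in liver.

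Other genes of triglyceride storage were read from lists of 15 droplet coat genes, 19 glycerolipid synthesis genes, 13 other lipases, 4 export genes and 11 regulators. For genotype 0 of 54 measured passed in muscle and 0 of 56 in fat. At an unadjusted p below 0.05 in limma there were 8 and 12, near the 18.5% and 19.2% of all genes in these tissues. In liver, as a description, Plin2, the coat protein of hepatocyte droplets, differed by 0.57, Plin4 by -0.82 and Ces1d by -0.43. In fat 10 of 11 regulators had a negative difference (median -0.23, beside -0.01 for all genes). For the interaction in fat 1 export gene and 1 regulator passed, named here, like those 3 liver genes, after their values were seen. Mttp, which loads lipid onto apolipoprotein B, and Ppard, a nuclear receptor, had estimates of 1.16 (limma adjusted p 0.0454) and 0.84 (adjusted p 0.0387).

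With age, 4 droplet coat genes rose and 1 fell in muscle among 14 measured, a share near the 31.3% of all genes. Besides Plin1, these included Abhd5, the activator of Pnpla2, which rose by 0.36 (limma adjusted p 0.00228), and Plin4 by 0.26, while Hsd17b11 fell by 0.26. The median of the coat list was 0.10 in muscle. In liver 0 rose and 2 of 14 fell, Hsd17b11 by 0.42 and Cav1 by 0.28 (median -0.01), and in fat 0 of 13 passed (median 0.06), where 35.0% and 19.3% of all genes passed.

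Of the 19 synthesis genes, 4 rose and 2 fell with age in liver, near the 35.0% of all genes, among them Mogat1, which makes diglyceride from monoglyceride (0.79, limma adjusted p 0.0393), Lpin3, a phosphatidate phosphatase (0.49), and Gpd1, which supplies glycerol phosphate (0.41). Agpat4 fell by 0.27 and Agpat1 by 0.26. In muscle, of 18 and near the 31.3% of all genes, 3 rose (Agpat1 by 0.36, Gpat3 by 0.33 and Gpat4 by 0.29) and 3 fell (Lpin2 by 0.69, Agpat4 by 0.36 and Agpat5 by 0.33), and in fat 0 of 19 passed. Of the other lipases, 3 of 13 passed in liver, 3 of 9 in muscle and 2 of 10 in fat, beside the same shares of all genes. Ddhd2 rose in liver by 0.26 and in muscle by 0.16 but fell in fat by 0.28, and Ddhd1 fell in liver by 0.29 and in muscle by 0.48. Ces1d fell in liver by 0.57, Abhd6, a monoglyceride hydrolase, rose in muscle by 0.52, and Lipa, the lysosomal lipase, rose in fat by 0.30. Of export genes and regulators, Apob fell in liver by 0.40, Tm6sf2 rose in liver by 0.26 and in muscle by 0.33, Mttp fell in fat by 0.47, and Ppard rose in liver by 0.84 and fell in fat by 0.45.

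The genes whose liver levels were most like those of Cidec over the 14 arrays were Cgref1 (Pearson r 0.972), Acacb (0.959), Serinc2 (0.957), Tmem125 (0.933) and Plin2 (0.931), out of 17559 genes. Plin2 coats the droplets of the liver and Acacb makes malonyl-CoA at the mitochondrion. These values share the 4 groups and the slides. After the mean of each group was subtracted, the nearest were Dennd1b (0.976), Cgref1 (0.955), H6pd (0.933), D830014E11Rik (0.930) and Ddx1 (0.930). Among the members, Pnpla2 (0.858), Mgll (0.805) and Lipe (0.792) ran with Cidec and Dgat2 ran against it (-0.843). After subtraction these values were 0.534 for Pnpla2, 0.583 for Mgll, 0.582 for Lipe and -0.537 for Dgat2.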

How the data were processed

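RNA of liver, quadriceps muscle and visceral fat was measured on 42 one-colour Agilent arrays. The deposited intensities are background-subtracted signals of Feature Extraction (9.1 by the submitters' processing notes, 9.5.3.1 by the file header). The deposited log2 values, which the authors made by scaling each array to its 75th percentile, correlated with the log2 intensities with r = 1 on every array. Levels were recomputed as log2 intensity minus the 75th percentile of the array. Control spots were left out, a probe was kept where 3 or more arrays of a group were well above background, and for a gene with several probes the brightest was used. Of the 9 genes 8 passed in each tissue (not Pnpla3 in liver, nor Cideb in muscle and fat). The 4 groups of a tissue, or all 42 arrays for tissues, were fitted with limma 3.58.1 in R 4.3.3 with Benjamini-Hochberg adjustment at 0.05 over all genes, after the code was tested on simulated data. Genotype and age effects are means over the other factor. The members, the gene lists and the rule for named genes (all members, up to 3 genes of a list that rose most and 3 that fell most among those that passed, and the 5 genes most like Cidec in liver) were chosen with earlier results of these data known. Cideb bounds compare the mean in liver with the lowest signal well above background. Replicate numbers did not pair the arrays at 8 weeks (r from -0.195 to 0.073 in 9 pairs of deviations from group means, over 0.1 in 0). At 35 weeks arrays of the same number ran together (r from 0.105 to 0.526 in 12 pairs), and of 36 pairs with unlike numbers 4 were over 0.1. There the number was also the position of the array on its slide in every group, so that a pairing of animals and slide position cannot be told apart. Alternatives were the authors' log2 values, normexp with quantile normalization, median scaling, the mean of all probes, no filter and a stricter one, slide and replicate blocks, 1 fit over all arrays, 1 age alone, and leaving out each array.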

Additional observations from a re-analysis of the deposited data

Results flagged for a closer look

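Among the 4 arrays of 1 group, replicate 4 of older Akt1+/- fat stood apart for Dgat1, with a level of 2.68 against 3.41, 3.42 and 3.50 on the others. Of 51 groups of 4 arrays examined for such a gap this was the only one, and chance alone sets some of so many groups apart. The age effect of Dgat1 differed between fat and muscle by -0.74 (limma adjusted p 0.0162), and over the fits that left out 1 array by -0.88 to -0.60.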

How the results depend on the processing

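Of 110 gene results with a test, 32 passed. Of these, 25 did so under every alternative except leaving out an array. In every fit that left out 1 array 29 did so, and 0 of the 32 reversed. The tissue results of Cideb, which was at background in muscle and fat, are counted among the 32 but are not read. The 2 liver members that passed for age became 0 with the mean of all probes, 1 with median scaling, 1 without a filter, 0 with slides taken as random blocks and 0 with the replicate block. Without 1 array the liver count ran from 0 to 4: 0 without wild-type replicate 3 of 35 weeks or replicates 1 or 3 of 8 weeks, 1 without replicates 1 or 4 of the older or 1 or 2 of the young Akt1+/- livers or older wild-type replicate 4, and 4 without young Akt1+/- replicate 3. The 1 fat member for age became 2 in 1 fit over all arrays and 0 with the mean of probes, with median scaling, without a filter and with the replicate block. Without 1 array it ran from 0 to 1, and was 0 without older Akt1+/- replicates 2, 3 or 4, young Akt1+/- replicate 2, older wild-type replicate 2, or young wild-type replicates 1 or 3. With only probes well above background on all arrays, fat against liver and fat against muscle had 5 passing members each, as 6 were left to test. The age effect differed between liver and muscle for 0 members, and for 2 (Cideb and Pnpla2) with normexp and quantile normalization. Of these Cideb is not read, since it was at background in muscle. Between fat and liver it differed for 0 to 1 without 1 array, and for 1 without fat Akt1+/- replicate 1 or wild-type replicate 3 of 35 weeks, or liver Akt1+/- replicate 2 or wild-type replicate 2 of 35 weeks, or young Akt1+/- replicate 3. The genotype difference of Cidec in liver, 2.01, ran from 1.61 to 2.28 without 1 array. Without 1 array the counts stayed at 3 for age in muscle, at 0 for genotype and interaction in muscle and fat, at 8, 8 and 9 for the tissues, at 1 for age in fat against muscle and at 0 in liver against muscle. For age, the replicate block ties all arrays of a tissue that share a number, young and older alike, although the numbers did not pair the young arrays. It also let Lipe pass for age in muscle (0.32, limma adjusted p 0.0264). Fits of 1 age alone were not run for differences in age effect. Causes were not tested. Over all probes kept in liver the median difference was 0.02 for genotype and 0.03 for age, and -0.11 and -0.17 with median scaling. Probes near background, such as Cidea in liver, have imprecise log2 levels.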
